A study of Mus musculus with 78 samples.

Results

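The soleus muscles of 20-month and 12-month control mice labelled F were compared by RNA sequencing. Members were the 7 libraries labelled 12 months and F and the 6 labelled 20 months and F, 13 of the 78 libraries analysed. The 2 libraries of 12-month F that carry the same animal tag were summed, which left 6 replicates at each age, 12 of 77. All mice of both groups were C57Bl/6, received control feed (Teklad 2918) with no agent and were sequenced in the first of 2 batches. The design text of the series names different suppliers for the 2 ages. The 12-month mice came from Invivos in Singapore and the 20-month mice from the Jackson laboratory in the USA, followed by acclimatisation. Age and supplier therefore cannot be told apart in any difference given here. The remaining samples of the series were soleus muscles of 6- and 28-month control mice of both labels, of 12- and 20-month control mice labelled M, and of 28-month mice fed calcium alpha-ketoglutarate (CaAKG). The labels do not describe the replicates beyond a number in the titles, so p-values measure the spread between these samples. F was read as female.

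The soleus is a slow postural muscle of the calf. Its fibres rely on mitochondrial respiration, are densely supplied with capillaries and carry mainly the slow and the type 2A myosin heavy chains, encoded by Myh7 and Myh2. Bulk RNA from such a muscle mixes the transcripts of fibres, capillaries, pericytes, fibroblasts, tendon, nerve and blood cells. In bulk samples, fewer cells of a type and less RNA per cell cannot be told apart.

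Ribosomal protein genes and nuclear genes for mitochondrial complexes fell together at 20 months, and their promoters are known for short, GC-rich start regions with binding sites of the ETS factor family. The promoter sequences of 4 members whose levels are described here are printed to show these sites, together with Rps9 and Atp5g1, whose windows do not hold the motif; that of Ndufb8, also described here, does not hold it either. Each run holds 50 bases before and 50 bases from the transcription start, 5′ to 3′ on the strand of the gene, from RefSeq on GRCm38.p6. Capitals mark CTTCCG, the core of the ETS motif, which was searched on both strands.
Rps2, chr17:24720013-24720112, plus strand: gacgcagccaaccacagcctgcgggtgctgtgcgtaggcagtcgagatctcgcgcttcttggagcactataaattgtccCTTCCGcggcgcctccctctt
Rps3, chr7:99483660-99483759, minus strand: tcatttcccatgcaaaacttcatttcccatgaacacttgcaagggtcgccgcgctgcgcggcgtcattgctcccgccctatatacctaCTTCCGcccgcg
Rps7, chr12:28635904-28636003, minus strand: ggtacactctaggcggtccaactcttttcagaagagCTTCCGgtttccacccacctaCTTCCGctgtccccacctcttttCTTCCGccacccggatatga
Cox8a, chr19:7217567-7217666, minus strand: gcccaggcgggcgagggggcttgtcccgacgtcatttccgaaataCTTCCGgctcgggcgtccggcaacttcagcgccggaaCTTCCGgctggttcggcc
Rps9, chr7:3703991-3704090, plus strand: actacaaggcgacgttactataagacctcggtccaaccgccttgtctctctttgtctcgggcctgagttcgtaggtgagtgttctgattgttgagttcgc
Atp5g1, chr11:96075582-96075681, minus strand: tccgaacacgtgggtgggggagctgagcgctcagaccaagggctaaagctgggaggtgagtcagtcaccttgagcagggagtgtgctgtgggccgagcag
Over the whole 300-base windows of the promoter table, 37 of the 55 cytosolic ribosomal protein genes with an entry held the motif (67.3%), as did 28 of 50 mitochondrial ribosomal protein genes (56%), 19 of 34 nuclear genes for complexes II to V (55.9%) and 8 of 32 complex I genes (25.0%). The share over all 27025 genes with an entry was 18.8%. Among groups that rose, 1 of 13 endothelial genes, 1 of 28 collagen and matrix genes and 0 of 14 giant sarcomere genes held it. These are matches of letters, the groups were not matched for GC content, and binding was not measured. A link between the motif and the changes was not tested.

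Several 12-month libraries stood apart from the rest. The library labelled 12-month F replicate 1 and the one labelled replicate 4 carried the Y-linked transcript Ddx3y and nearly no Xist, against their label. Ddx3y was at 63.8 and 16.8 counts per 1000000 (CPM) of the library total. In the other 4, on the same scale, Ddx3y was at 0 and Xist between 38.1 and 115. Replicate 5 held 5260 CPM of summed keratinocyte markers, against 5.82 to 75.3 in the other 12-month replicates and 13.9 to 17.4 at 20 months. The value of 75.3 came from replicate 6, the sum of the 2 libraries with a shared animal tag. The counts of these 2 differed by a mean chi-square of 265 per gene, a measure that grows with depth. The median over the 36 pairs within groups was 115.5, and 1 of the 2 differed from replicate 5 by 65.5. Whether both came from 1 animal was not tested. Library totals ran (in units of 1000000 counts) from 27.3 to 112 at 12 months and from 34.4 to 60.0 at 20 months. Mitochondrial genome transcripts took 46.5% of the counts of replicate 4, 16.0% to 23% in the other 5 replicates at 12 months, and 15.0% to 17.1% at 20 months. Myl2, a slow-fibre light chain, was at 2961 CPM or more in all 12 replicates, and Pvalb, a fast-fibre calcium buffer, was at 26.9 to 374 CPM at 12 months and 10.2 to 495 at 20 months. The counts over gene lists are given with all 12 replicates and again without 12-month replicates 1, 4 and 5, which leaves 6 against 3. Genes that passed with all 12 and are named with no value for the smaller fit passed there too, in the same direction.

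Of 18218 genes tested, 4612 rose (25.3%) and 4461 fell (24.5%) from 12 to 20 months at an adjusted p under 0.05, which is 49.8% in either direction (edgeR quasi-likelihood test with Benjamini-Hochberg adjustment, used for every adjusted p below). Without the 3 libraries, 3853 of 18603 rose (20.7%) and 3609 fell (19.4%), together 40.1%. Both fits called 3502 of the rises and 3279 of the falls, and no gene was called in opposite directions. Leaving the 3 libraries out ended the call of 1110 rises and 1181 falls. The median log2 fold change over all genes tested was -0.03 with all replicates and 0.04 without the 3. With about every second gene called, a count of members is read against these shares.

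The fold changes followed transcript length. The median log2 fold change was -1.12 among the shortest genes (median length 778 bases) and 1.00 among the longest (median 8000 bases), with a Spearman correlation of 0.56 across genes, which are not independent replicates. Genes that rose had a median length of 4972.5 bases and genes that fell 1921.5, against 3079 for all tested. Each of the 6 libraries at 20 months leaned to long transcripts (Spearman correlation of a library's deviation with length between 0.45 and 0.51), and each of the 6 at 12 months to short ones (-0.53 to -0.25). Offsets fitted to each library's trend on transcript length and GC content reduced the trend of the fold changes but did not remove it. The Spearman correlation with length was still 0.11, and the median log2 fold change of the shortest genes -0.32. With these offsets 6746 genes were called, 3173 up (17.4%) and 3573 down (19.6%), and 5040 without the 3 libraries (27.1%). Counts over most gene lists are also given with offsets, against these shares, and in some cases where the picture differs with offsets and without the 3 libraries together (backgrounds of 11.6% up and 15.4% down). The part of length or RNA quality in the single results was not tested further.

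**Figure D1:**
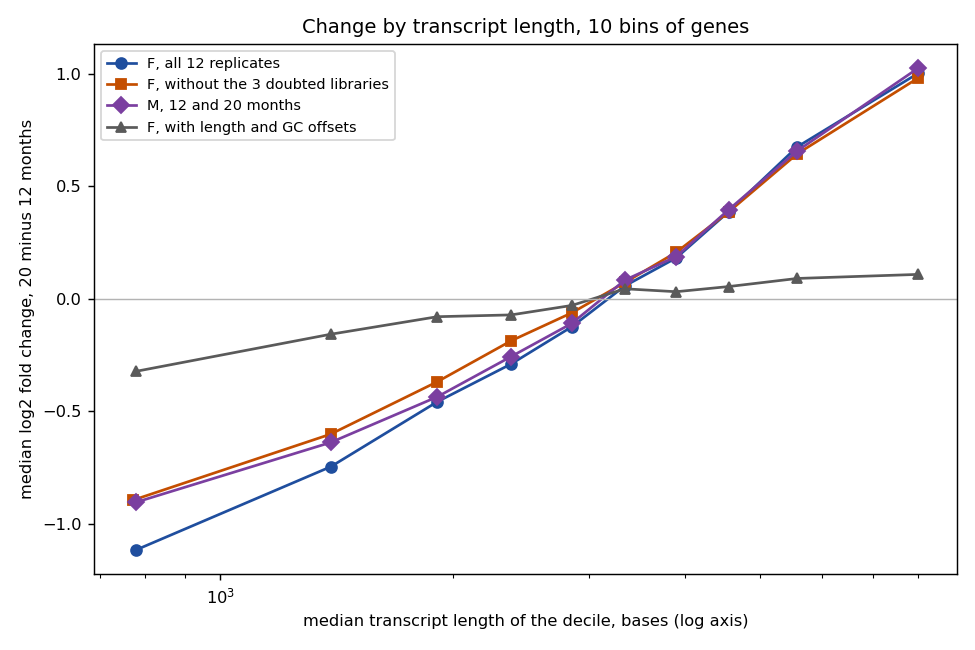
Median log2 fold change from 12 to 20 months (y axis) in 10 equal-sized groups of genes ordered by transcript length (x axis), for F with all replicates, F without the 3 libraries, F with length and GC offsets, and M. The lines climb from -1.12 to 1.00 for F and from -0.91 to 1.03 for M, and the line with offsets stays between -0.32 and 0.11.

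Genes for the cytosolic ribosome fell from 12 to 20 months. These proteins form the small and large subunits that translate messenger RNA. All 76 ribosomal protein genes tested fell (background 24.5%), by a median of -1.51 on the log2 scale, and 75 of them lay below every 12-month replicate in all 20-month replicates, against 10.8% of all genes tested. Without the 3 libraries 75 of 76 fell, with a median of -1.22. With offsets 73 fell, with a median of -0.81. Their summed level was 21200 to 45600 CPM of the library total at 12 months and 11800 to 14400 at 20 months, so the ranges did not overlap. The median transcript length of the list was 1100 bases. Among all tested genes of 168 to 1106 bases the median log2 fold change was -1.12, and -0.32 with offsets. Ribosomal protein genes have many processed pseudogenes, and reads that fit several copies may have been divided between them.

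Rps2, a protein of the small subunit (ENSMUSG00000044533, chr17:24718116-24721929, plus strand, mm10), was at 1058, 1688 and 2974 CPM at 12 months and at 414, 496 and 542 at 20 months. Such values are the lowest, median and highest of the 6 replicates. Single-gene CPM are scaled by TMM factors unless given as of the library total. No 20-month replicate reached the lowest 12-month one. The log2 fold change was -1.90 (SE 0.16, adjusted p = 2.9e-15), -1.71 without the 3 libraries and -1.11 with offsets. Rps3, Rps7 and Rps9 fell by 1.56, 1.51 and 1.56 on the log2 scale, also without overlap between the groups. The values without the 3 libraries were -1.38, -1.30 and -1.34, and those with offsets -1.60, -0.80 and -0.96. Emg1, an enzyme of ribosomal RNA maturation, went from 54.6, 72.6 and 104 CPM to 25.8, 30.5 and 32.8 (log2 fold change -1.30, SE 0.11, with -1.23 without the 3 and -1.64 with offsets).

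The ribosome of the mitochondrion, which translates the messengers of the mitochondrial genome, showed the same direction. Of its 57 protein genes 53 fell and none rose, with a median log2 fold change of -1.08. Without the 3 libraries 54 fell (median -1.01), and with offsets 50 (median -0.68). The median transcript length was 2220 bases, and all tested genes of 2142 to 2623 bases had a median of -0.29 (-0.07 with offsets). Mrps24, a small subunit member, had the lowest p of the list. Its levels were 77.5, 113.1 and 241 CPM at 12 months and 24.9, 30.1 and 37.9 at 20 months, so that it fell by 2.07 on the log2 scale (SE 0.19, adjusted p = 2.1e-14). The value was -1.81 without the 3 and -1.25 with offsets.

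Nuclear genes for the respiratory chain fell nearly as uniformly. Complex I, which passes electrons from NADH into the chain, had 35 of 36 subunit genes down and 1 up, with a median log2 fold change of -1.33. Complexes II to V, which carry the electrons to oxygen and make ATP, had 40 of 43 down and 1 up, with a median of -1.20. Without the 3 libraries the counts were 35 of 36 and 41 of 43 down, with none up. With offsets 30 and 32 fell, with medians of -0.62 in both groups. Median transcript lengths were 1025.5 bases for complex I and 1231 for complexes II to V. All tested genes of 168 to 1106 bases had a median log2 fold change of -1.12 (-0.32 with offsets). Those of 1106 to 1667 bases had a median of -0.75 (-0.16 with offsets).

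Uqcrq, a small subunit of complex III (ENSMUSG00000044894, chr11:53427922-53430831, minus strand), went from 556, 753 and 1654 CPM to 193, 224 and 276. The highest 20-month value was far below the lowest at 12 months, and the log2 fold change was -1.92 (SE 0.20, adjusted p = 9.4e-13), -1.65 without the 3 and -1.40 with offsets. Atp5g1, which encodes a ring subunit of ATP synthase, fell from 726, 1176 and 2471 CPM to 362, 406 and 451 (log2 fold change -1.66, SE 0.17). Its value was -1.42 without the 3 and larger with offsets, at -2.13. Ndufb8 of complex I fell from 453, 675 and 1290 CPM to 184, 212 and 248 (log2 fold change -1.76, SE 0.18, with -1.51 both without the 3 and with offsets). Cox8a of complex IV fell from 50, 78.8 and 106 CPM to 20.6, 26.6 and 29.3 (log2 fold change -1.58, with -1.34 without the 3 and -0.63 with offsets). In all 4 of these genes the groups did not overlap. On the TMM scale the highest 12-month value of Uqcrq, Atp5g1 and Ndufb8 came from replicate 4.

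The genes of the chain that rose were Sdha and Ndufs1. Sdha, the flavoprotein of complex II, was at 429, 662 and 976 CPM at 12 months and 859, 888 and 965 at 20 months. Its log2 fold change was 0.41 (SE 0.12, adjusted p = 0.003), and without the 3 libraries it was 0.23 with an adjusted p of 0.20. For Ndufs1, the largest subunit of complex I, the value was 0.49 (SE 0.14, adjusted p = 0.002) and 0.26 without the 3 (adjusted p = 0.18). Neither gene passed once those libraries were left out.

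Messengers encoded in the mitochondrial genome also fell with all replicates, in 11 of 13 cases (median log2 fold change -1.25). Without replicate 4 alone 7 fell, while leaving out any other single 12-month replicate left 10 or 11. In the fit of 6 against 3 it was also 7 (median -0.62), and with offsets 6 (median -0.49). With both the offsets and the 3 left out, 2 fell and 1 rose (median -0.09). Mt-Nd3, a complex I subunit (chrM:9459-9806, plus strand), fell most among those named, from 237, 900 and 3286 CPM to 64.8, 89.1 and 111.4. For mt-Nd3 the log2 fold change was -3.78 (SE 0.50, adjusted p = 1e-09) and -2.92 without the 3 libraries, and with the offsets as well it was -2.25 (adjusted p = 3.7e-04). Mt-Nd1, another complex I subunit, was at 12200, 18990 and 110500 CPM at 12 months and 10390, 11240 and 12240 at 20 months. Its log2 fold change of -1.59 became -0.71 without the 3 libraries (adjusted p = 0.0028), and -0.09 with the offsets as well, which did not pass (adjusted p = 0.72).

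On the TMM scale, the RNAs of the mitochondrial ribosome and the nuclear gene Lars2, a mitochondrial leucyl-tRNA synthetase, had their highest values in replicate 4 as well. The small ribosomal RNA mt-Rnr1 was at 1294, 2627 and 32380 CPM at 12 months and at 382, 463 and 639 at 20 months (log2 fold change -3.91, SE 0.43). In the fit of 6 against 3 the log2 fold change of mt-Rnr1 was -1.99, and that of the large ribosomal RNA mt-Rnr2 went from -2.59 to -1.16. Lars2 was at 694, 1710 and 4968 CPM at 12 months and 248, 301 and 610 at 20 months, with a log2 fold change of -2.52 (SE 0.35) and -1.45 without the 3. The groups did not overlap in mt-Rnr1 or Lars2.

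Metabolic pathways that feed the chain were mixed. In the tricarboxylic acid cycle and pyruvate entry list 3 of 24 rose and 11 fell (without the 3 libraries 1 and 11, with offsets 5 and 4). Mpc2, a subunit of the carrier that brings pyruvate into mitochondria, fell from 329, 481 and 978 CPM to 137, 161 and 208 (log2 fold change -1.71, SE 0.19, and -1.92 with offsets). Ogdh, the first subunit of the alpha-ketoglutarate dehydrogenase complex, rose from 337, 563 and 871 CPM to 1028, 1080 and 1181 (log2 fold change 0.93, SE 0.13, and 0.71 both without the 3 and with offsets). These 2 genes of the same organelle moved apart with no overlap between the ages. Fatty acid uptake and oxidation had 4 of 26 up and 9 down, with 2 and 11 without the 3 libraries and 4 and 5 with offsets. Among those that fell was Eci1, an enzyme for unsaturated fatty acids (log2 fold change -1.30, SE 0.16, and -0.59 with offsets). Glycolysis and glycogen had 8 of 21 up and 8 down, 7 and 6 without the 3, and 7 and 1 with offsets.

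For regulators of mitochondrial biogenesis and dynamics the balance changed with the fit. Of 23 tested 16 rose (background 25.3%) and 3 fell, and 10 and 2 without the 3 libraries. With offsets 9 rose and 6 fell, and with offsets and without the 3 libraries 2 rose and 6 fell (median log2 fold change 0.07). Ppara, a receptor that switches on fat oxidation genes, rose from 4.10, 11.4 and 15.7 CPM to 29.6, 36.2 and 52.1 (log2 fold change 1.86, SE 0.31, and 1.81 with offsets). Opa1, which fuses inner mitochondrial membranes, rose by 1.06 (SE 0.13) and by 0.37 with offsets. The co-activator Ppargc1a rose by 0.87 (SE 0.34, adjusted p = 0.027) and did not pass without the 3 libraries (0.79, adjusted p = 0.14) or with offsets (0.11, adjusted p = 0.82). Sirt3, a mitochondrial deacetylase, fell by 1.07 on the log2 scale (SE 0.16) and by 1.11 with offsets.

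**Figure D2:**
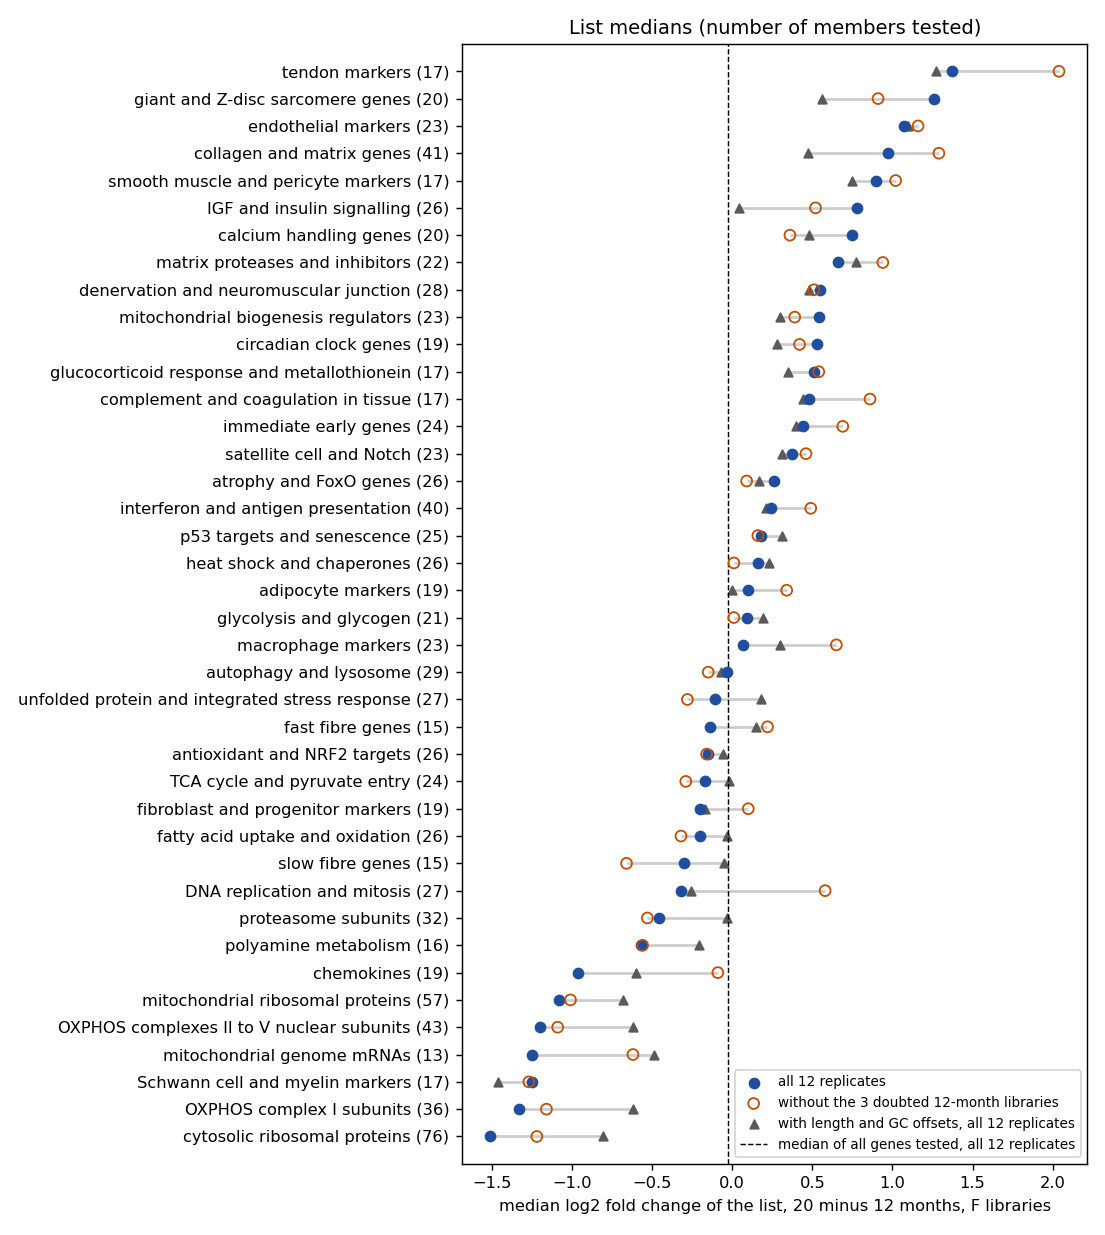
Median log2 fold change from 12 to 20 months (x axis) of 40 gene lists (y axis) with all 12 replicates, without the 3 libraries and with length and GC offsets; the dashed line marks the median of all genes, -0.03. Ribosomal, respiratory chain, mitochondrial genome and Schwann cell lists lie furthest left, and the tendon, giant sarcomere and endothelial lists furthest right.

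Giant proteins of the sarcomere and its membrane anchors rose. They set the spacing of the filaments, or tie the contractile apparatus to the fibre surface. Of 20 genes tested 18 rose and 2 fell, with a median log2 fold change of 1.26, and 12 lay above every 12-month replicate in all 20-month replicates (15.0% of all genes did). With the 3 left out, 14 rose (median 0.91), and with offsets 11 rose and none fell (median 0.56). The median transcript length of the list was 5743.5 bases.

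Dmd, which encodes dystrophin and links the cytoskeleton to the membrane (ENSMUSG00000045103, chrX:82948870-85206141, plus strand), was at 33.3, 48.7 and 93.2 CPM at 12 months and 187, 203 and 287 at 20 months. The lowest 20-month replicate was above the highest at 12 months, and the log2 fold change was 2.01 (SE 0.21, adjusted p = 7.9e-13), 1.63 without the 3 and 0.92 with offsets. Myom2, a protein of the M-band, rose from 75.9, 163 and 200 CPM to 491, 586 and 641 (log2 fold change 1.99, SE 0.25). Its value with offsets, 1.52, kept more of the change than that of the other genes of the list named here. Utrn, encoding the dystrophin relative utrophin, rose from 16.3, 18.6 and 36.3 CPM to 50.6, 55.8 and 82.3 (log2 fold change 1.55), with a value of 0.38 with offsets that did not pass (adjusted p = 0.053). Neb, the thin filament ruler nebulin, rose by 1.45 and likewise did not pass with offsets (0.31, adjusted p = 0.10).

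Myosin and other fibre-type genes moved in both directions. Among 15 slow fibre genes 3 rose and 5 fell, and 1 and 8 without the 3 libraries (median log2 fold change -0.30 and -0.66). With offsets 3 rose and 1 fell (median -0.05). Myh7, the slow heavy chain (ENSMUSG00000053093, chr14:54970684-54994626, minus strand), was at 1350, 5225 and 12580 CPM at 12 months and 11760, 15070 and 18420 at 20 months. On the log2 scale the change was 1.33 (SE 0.29, adjusted p = 7.3e-05), and without the 3 libraries it was 0.75 and did not pass (adjusted p = 0.052). The short slow-fibre genes went the other way: Myl2, the slow regulatory light chain, fell from 4507, 5346 and 6538 CPM to 2961, 3098 and 3736 (log2 fold change -0.75, and -0.95 without the 3). With offsets the value for Myl2 was -0.05 (adjusted p = 0.83), and for Myl3, the slow essential light chain, -0.10 (adjusted p = 0.56). Myoz2, a Z-disc protein of slow fibres that binds calcineurin, fell from 1468, 1826 and 2402 CPM to 821, 839 and 1002 (log2 fold change -1.04, and -0.85 with offsets).

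In the fast fibre list 3 of 15 rose and 7 fell, with 2 and 5 without the 3 libraries and 2 and 2 with offsets. The median log2 fold changes were -0.14, 0.22 and 0.15. The fast light chain gene Mylpf was lower at 20 months, at 1454 to 4100 CPM at 12 months and 706 to 1256 at 20. Tnnc2 (2393 to 8081 and 1346 to 2250 CPM) was lower as well. Tnni2 (1731 to 5775 and 1209 to 1755) and Myl1 (1672 to 6018 and 1083 to 1718) overlapped slightly. The heavy chains differed from these. Myh2, the heavy chain of type 2A fibres, rose from 2392, 2964 and 5184 CPM to 5011, 7375 and 8121 (log2 fold change 1.04, SE 0.23), and did not pass with offsets (0.42, adjusted p = 0.12). Myh1 of type 2X fibres had a log2 fold change of 0.82 (adjusted p = 0.088). Myh4 of type 2B fibres spread from 8.39 to 404 CPM at 12 months and from 14.3 to 3068 at 20 months, and its log2 fold change of 2.99 (SE 1.49) did not pass (adjusted p = 0.09).

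Genes that release and take up calcium had 13 of 20 up and 3 down, 8 and 3 without the 3 libraries, and 12 and 3 with offsets. With offsets and without the 3 libraries they had 3 up and 4 down (median log2 fold change 0.18). Ryr1, the release channel of the sarcoplasmic reticulum (ENSMUSG00000030592, chr7:29003344-29125179, minus strand), rose from 339, 812 and 1417 CPM to 2016, 2258 and 2806. The log2 fold change was 1.61 (SE 0.24, adjusted p = 3.8e-08), 1.18 without the 3 and 0.63 with offsets. Cacna2d1, a subunit of the voltage sensor channel, rose from 51.7, 111.1 and 170 CPM to 256, 289 and 332 (log2 fold change 1.47, and 0.66 with offsets). Atp2a2, the slow-fibre calcium pump, rose from 1323, 3282 and 7586 CPM to 7982, 9726 and 11660 (log2 fold change 1.41, and 0.79 without the 3). Jsrp1, a short gene of the same junction, fell from 303, 528 and 703 CPM to 215, 229 and 245 (log2 fold change -1.18, and -0.51 with offsets).

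Most endothelial genes rose, with the offsets as without them. The cells they mark line the capillaries and sense flow and growth factors. Of 23 tested 16 rose and 2 fell, with a median log2 fold change of 1.07, and 14 lay above every 12-month replicate. In the fit of 6 against 3, 16 rose and 1 fell (median 1.16), and with offsets 18 rose and 2 fell (median 1.10). The summed level was 352 to 1470 CPM at 12 months, 563 to 745 in the 3 kept replicates, and 1360 to 1660 at 20 months.

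Ptprb, the endothelial phosphatase that restrains the Tie2 receptor (ENSMUSG00000020154, chr10:116275523-116389535, plus strand), was at 15.3, 20.5 and 32.4 CPM at 12 months and 91.0, 110 and 142 at 20 months. Even the lowest 20-month value exceeded the highest at 12 months, and the log2 fold change was 2.37 (SE 0.21, adjusted p = 4.8e-15), 2.37 without the 3 and 1.25 with offsets. Cdh5, the cadherin of endothelial junctions, rose from 13.1, 18.6 and 36.6 CPM to 83.1, 100.2 and 122.9. The log2 fold change of 2.23 (SE 0.24) was 2.22 without the 3 and 2.05 with offsets. The receptors for vascular endothelial growth factor moved likewise, Flt1 from 11.7, 18.8 and 26.2 CPM to 82.3, 93.1 and 110 (log2 fold change 2.29, and 1.48 with offsets) and Kdr from 12.5, 17.0 and 30.2 to 52.9, 59.8 and 90.6 (log2 fold change 1.85, and 1.18 with offsets). Pecam1, an adhesion molecule of all endothelium, rose by 1.69 (SE 0.20) and by 1.62 with offsets. Not every member went this way. Egfl7 was at 47.8 to 78.2 CPM at 12 months and lower, at 21.2 to 37.4, at 20 months. Cldn5 overlapped between the ages, at 8.12 to 19.2 and 6.29 to 24.7 CPM.

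Markers of the mural cells around vessels rose too, with 11 of 17 up and 2 down both with and without the 3 libraries, and 9 up and none down with offsets. Rgs5, a pericyte regulator of G-protein signals, rose from 115, 122 and 287 CPM to 443, 457 and 483 (log2 fold change 1.48, SE 0.17, and 1.27 with offsets). Notch3, the mural Notch receptor, rose from 6.36, 8.46 and 20.9 CPM to 34.3, 44.7 and 52.1 (log2 fold change 2.00, and 1.23 with offsets). Myh11, smooth muscle myosin, rose from 7.46, 11.0 and 24.2 CPM to 36.7, 44.5 and 45.7 (log2 fold change 1.70, and 1.01 with offsets). The summed level of the list overlapped between ages, at 2430 to 5220 CPM and 4500 to 4970. Most of that sum was Des, desmin, which is also a member of the sarcomere list. Des was at 2759 to 5412 CPM at 12 months and 3308 to 3586 at 20 months. The sum therefore says little about the other mural markers.

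**Figure D3:**
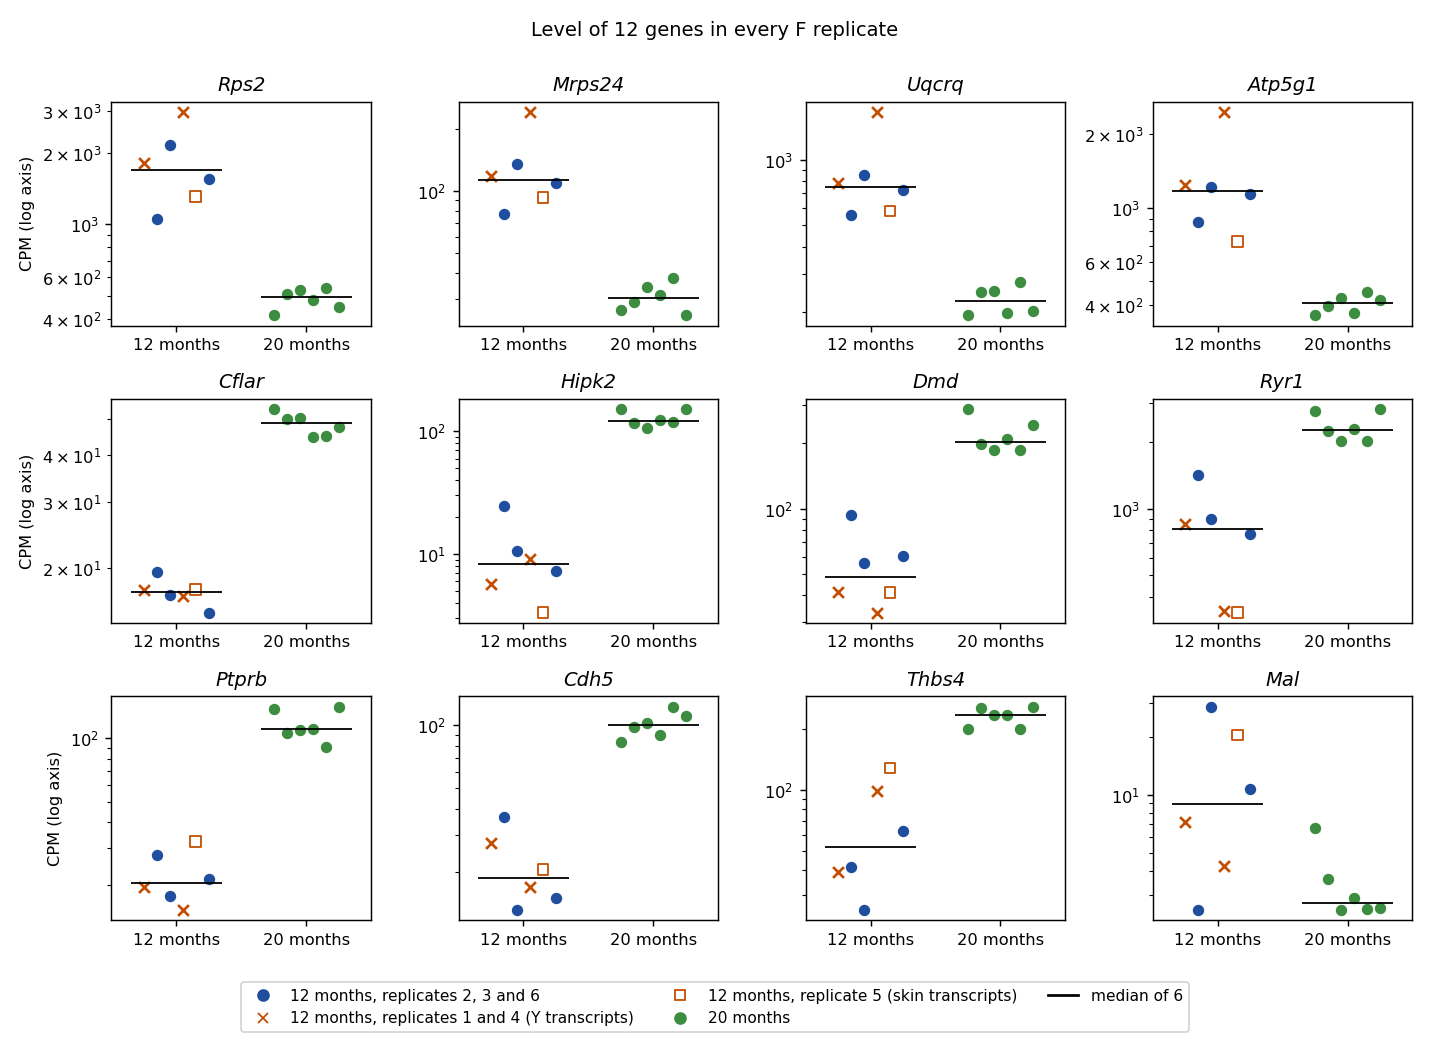
CPM on a log axis (y) of 12 genes in each 12-month and 20-month F replicate (x), with a bar at the median of 6; crosses mark 12-month replicates 1 and 4 and open squares replicate 5. The 6 replicates at 20 months lie below all at 12 months for Rps2, Mrps24, Uqcrq and Atp5g1, and above them for Cflar, Hipk2, Dmd, Ryr1, Ptprb, Cdh5 and Thbs4, while the ages overlap for Mal.

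Matrix genes rose as well. Of 41 collagens and other matrix genes 31 rose and none fell, with a median log2 fold change of 0.97, and 35 rose without the 3 libraries (median 1.29). With offsets 13 rose and 5 fell (median 0.47), so most of these calls did not pass there. Basement membrane genes were among those named: Lamc1, a laminin chain, rose from 30, 36.6 and 42.9 CPM to 92.3, 93.9 and 121 (log2 fold change 1.45, SE 0.15, and 0.59 with offsets). Col4a2, a chain of network collagen, rose from 12.4, 28.9 and 50.4 CPM to 65.6, 87.6 and 121 (log2 fold change 1.64, and 0.99 with offsets). The fibrillar collagens were less clear. Col1a1 rose by 1.72 on the log2 scale (SE 0.62, adjusted p = 0.016) and did not pass with offsets (1.12, adjusted p = 0.14), while Col3a1 had a value of 0.07 (adjusted p = 0.90).

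Proteases of the matrix and their inhibitors had 9 of 22 up and none down, 10 and none without the 3 libraries, and 10 and 1 with offsets. Timp3, a matrix-bound inhibitor of metalloproteases, rose from 31, 53.5 and 122 CPM to 154, 240 and 293 (log2 fold change 1.88, SE 0.23, and 1.42 with offsets). Adamts1, a protease that cuts proteoglycans, rose from 15.1, 22.7 and 25.8 CPM to 59.1, 91.4 and 116 (log2 fold change 2.01, and 1.54 with offsets). Fibroblast and progenitor markers had 3 of 19 up and 5 down, without the 3 libraries 5 up and none down, and with offsets 2 up and 2 down.

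With all replicates tendon markers had the largest median of the lists, 1.37 on the log2 scale, with 12 of 17 up and 1 down. With replicates 1, 4 and 5 left out, 13 rose (median 2.04), and with offsets 9 (median 1.27). Their summed level was 101 to 978 CPM at 12 months, 101 to 360 in the 3 kept replicates, and 882 to 1200 at 20 months. Thbs4, a thrombospondin of tendon and muscle attachments (ENSMUSG00000021702, chr13:92751590-92794818, minus strand), rose from 25.3, 52 and 128 CPM to 200, 237 and 260 without overlap. The log2 fold change of Thbs4 was 1.82 (SE 0.30, adjusted p = 4.3e-07), 2.42 without the 3 and 1.87 with offsets. Fmod, a proteoglycan that binds collagen fibrils, rose from 4.37, 48.3 and 226 CPM to 263, 300.2 and 367 (log2 fold change 2.04). Scx, a transcription factor of tendon cells, went the other way, from 14.5, 35.3 and 49.2 CPM to 11.4, 11.9 and 16.4 (log2 fold change -1.46, SE 0.31). How much tendon each dissected muscle held was not tested.

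Myelin genes had medians of opposite sign in F and M. Of 17 Schwann cell and myelin markers 7 fell and none rose in F (median log2 fold change -1.25), also without the 3 libraries, and 6 with offsets. Mal, a membrane protein of myelin (ENSMUSG00000027375, chr2:127633226-127656695), was at 7.22, 2.52, 28.7, 4.24, 20.4 and 10.8 CPM in 12-month replicates 1 to 6 and at 2.52, 2.74 and 6.73 (lowest, median and highest) at 20 months. The 3 highest values came from replicates 3, 5 and 6, and the ages overlapped. The log2 fold change of -1.82 (SE 0.60, adjusted p = 0.0087) became -1.39 without 12-month replicate 3 and did not pass (adjusted p = 0.052). In M, Mal had a log2 fold change of 0.46 (adjusted p = 0.52), and the difference between F and M of -2.28 did not pass (adjusted p = 0.67). The summed level of the list was 56.9 to 938 CPM at 12 months and 131 to 310 at 20 months. How much nerve each sample held was not tested.

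Genes of the neuromuscular junction and of denervated fibres rose in 12 of 28 cases and fell in 2 (10 and 2 without the 3 libraries, 11 and 1 with offsets, 4 and 2 with both). Musk, the receptor kinase that organises the junction (ENSMUSG00000057280), rose from 5.37, 10.6 and 12.7 CPM to 24.2, 28.9 and 41.7 (log2 fold change 1.60, SE 0.22, and 1.53 with offsets). Ncam1, an adhesion molecule that spreads over denervated fibres, rose from 2.29, 6.30 and 12.8 CPM to 20.5, 22.9 and 29.5 (log2 fold change 1.80, SE 0.31, and 1.06 with offsets). Rapsn, which clusters acetylcholine receptors, fell from 26.5, 39.3 and 46.5 CPM to 19.6, 21.2 and 22.3 (log2 fold change -0.82), and with offsets did not pass (-0.24, adjusted p = 0.099). The receptor subunit Chrna1, which denervation is known to raise, had a log2 fold change of 0.28 (adjusted p = 0.30).

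Atrophy genes rose in 12 of 26 cases and fell in 4, with the same counts without the 3 libraries. With offsets 9 rose and 5 fell, and with both 7 and 5 (median log2 fold change -0.01). Foxo3, a transcription factor that switches on protein breakdown, rose from 10.4, 22.8 and 24.5 CPM to 46.3, 59.7 and 65.5 (log2 fold change 1.53, SE 0.21, and 0.79 with offsets). The ubiquitin ligases Nedd4 and Fbxo32 rose by 1.21 (SE 0.11) and 1.27 (SE 0.22) on the log2 scale (0.61 and 0.47 with offsets), whereas the ligase Trim63 had a log2 fold change of -0.07 (adjusted p = 0.81). Proteasome subunits, which degrade the marked proteins, fell in 24 of 32 cases and rose in 3, and 25 fell and 1 rose without the 3 libraries. Psmb6, a catalytic subunit, fell from 136, 158 and 207 CPM to 75.5, 79.1 and 83.4 (log2 fold change -1.06, and -0.33 with offsets). With offsets 11 subunits fell and 6 rose (median -0.03).

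Stress genes were split. Heat shock proteins and chaperones had 9 of 26 up and 5 down, 3 and 5 without the 3 libraries, 11 and 3 with offsets, and 3 and 5 with both. Hspe1, the co-chaperonin of the mitochondrial matrix, fell by 1.41 (SE 0.15) and by 0.68 with offsets. The unfolded protein and integrated stress response list had 8 of 27 up and 6 down (median log2 fold change -0.11). It had 5 and 5 without the 3 libraries, 9 and 1 with offsets, and 8 and 1 with both. Hspa5 of that list, the chaperone of the endoplasmic reticulum, rose from 87.2, 132 and 238 CPM to 238, 283 and 336 (log2 fold change 1.02, SE 0.20, and 0.89 with offsets). Among antioxidant genes 3 of 26 rose and 9 fell, and 4 and 9 without the 3 libraries. With offsets 7 rose and 8 fell (median log2 fold change -0.06), and with both 4 and 5. Gpx4, which reduces lipid peroxides, fell from 458, 746 and 1244 CPM to 184, 226 and 259 (log2 fold change -1.74, SE 0.19, and -0.91 with offsets), and the peroxiredoxin Prdx5, of whose exonic bases 19.1% are shared with a gene on the opposite strand, by 1.40 (by 0.92 with offsets). Cell-cycle inhibitors used as senescence markers did not pass, with log2 fold changes of -0.31 for Cdkn1a (adjusted p = 0.55) and 0.50 for Cdkn2a (adjusted p = 0.69). Cdkn2a was at 0.309 CPM or less in all 12 replicates, near the floor, so its missing call says little. The p53 and senescence list had 4 of 25 up and 5 down (5 and 4 without the 3 libraries, 5 and 3 with offsets).

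Insulin and IGF signalling had 17 of 26 up and 5 down, and 16 and 5 without the 3 libraries. With offsets 10 rose and 5 fell (median log2 fold change 0.04), and with offsets and without the 3 libraries 5 rose and 4 fell (median 0.02). The median transcript length of this list was 6294.5 bases. Insr, the insulin receptor (ENSMUSG00000005534, chr8:3122061-3279617, minus strand), rose from 24.9, 38.7 and 78.8 CPM to 119, 131 and 164, with no overlap. On the log2 scale the change was 1.68 (SE 0.19, adjusted p = 5.4e-12), 1.25 without the 3 and 0.69 with offsets. Igf1r, the receptor for IGF-1, rose from 1.90, 7.76 and 10.9 CPM to 18.3, 21.6 and 26.3 (log2 fold change 1.64, and 0.57 with offsets). The kinase gene Mtor rose by 1.00 (SE 0.12), but its value with offsets was 0.11 (adjusted p = 0.51). Polyamine genes had 1 of 16 up and 8 down, also without the 3 libraries, and none up and 4 down with offsets. Among them Oaz1, the antizyme that limits polyamine synthesis, fell from 349, 598 and 705 CPM to 211, 223 and 241 (log2 fold change -1.33, and -1.11 with offsets).

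Clock genes had 9 of 19 up and 1 down (7 and 1 without the 3 libraries, 4 and 2 with offsets, 2 and 1 with both). Rora, a nuclear receptor of the clock loop, rose from 14.0, 18.9 and 28.2 CPM to 54.0, 65.4 and 80.5 (log2 fold change 1.69, SE 0.24, and 0.65 with offsets), and Clock itself by 1.23, which did not pass with offsets (0.28, adjusted p = 0.33). The hour of tissue collection is not given in the sources used here. Of 17 genes that respond to glucocorticoids 7 rose and 1 fell (8 and 1 without the 3, 7 and none with offsets). Zbtb16, a transcription factor induced by the hormone, rose from 13.1, 20.5 and 31 CPM to 57, 79.4 and 143 (log2 fold change 2.11, SE 0.33, and 1.67 with offsets).

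Satellite cell and Notch genes rose in 11 of 23 cases and fell in none, with 10 up without the 3 libraries and 5 up with offsets, none down in either. Pax7, which marks muscle stem cells, had a log2 fold change of 0.83 (adjusted p = 0.028) that did not pass without the 3 libraries (0.46, adjusted p = 0.37). Among immune cell markers, those of macrophages had 3 of 23 up and 1 down (median log2 fold change 0.07), 5 and none without the 3 libraries (median 0.65; background 20.7% up) and 2 and none with offsets. Lymphocyte and plasma cell markers had 0 of 21 up and 1 down, and none in either direction without the 3 libraries or with offsets. Interferon and antigen presentation genes had 7 of 40 up and 4 down, 9 and none without the 3 libraries, and 10 and 1 with offsets (background 17.4% up). Among chemokines 2 of 19 rose and 6 fell, 2 and none without the 3 libraries, and 2 and 1 with offsets. Cxcl14 illustrates this, with a log2 fold change of -1.10 (adjusted p = 0.0022) that was -0.07 without them (adjusted p = 0.89). Cxcl12, a stromal chemokine, rose from 35.4, 54.7 and 75 CPM to 140, 154 and 238 (log2 fold change 1.62, SE 0.22, and 1.00 with offsets). Adipocyte markers had 1 of 19 up and 2 down, none in either direction without the 3 libraries, and 3 up and 1 down with offsets. Of 18 keratinocyte markers 17 fell with all replicates and 0 without the 3 libraries, of which replicate 5 held the most skin transcripts. Replicate 6, kept in the smaller fit, held some too, with Krt5 at 10.9 and Krt10 at 16.4 CPM. In replicates 2 and 3 Krt5 was at 0, and Krt10 at 5.81 and 2.30 CPM.

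The gene with the lowest p was Cflar, an inhibitor of caspase-8 (ENSMUSG00000026031, chr1:58711508-58758884, plus strand). It was at 15.2, 17.2 and 19.5 CPM at 12 months and 44.8, 48.8 and 53.1 at 20 months, with little spread in either group and no overlap. The log2 fold change was 1.49 (SE 0.11, adjusted p = 3.7e-18), 1.49 without the 3 and 0.72 with offsets. Rad54l2, a chromatin remodelling ATPase, rose from 0.951, 3.85 and 5.45 CPM to 16.4, 18.6 and 23.5 (log2 fold change 2.37, SE 0.19, and 1.37 with offsets). Trir, which encodes a ribonuclease that interacts with telomerase RNA, fell from 61.7, 87.3 and 118 CPM to 28.1, 30.2 and 35.5 (log2 fold change -1.50, SE 0.12, and -0.65 with offsets).

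The kinase gene Hipk2 was the most abundant at 20 months among the 12 largest rises (ENSMUSG00000061436, chr6:38694390-38876165, minus strand). Its levels were 3.32, 8.23 and 24.5 CPM at 12 months and 106, 121 and 151 at 20 months, which gave a log2 fold change of 3.67 (SE 0.33) at an adjusted p of 1.2e-14, with 3.17 without the 3 and 2.89 with offsets. Atp7a, a copper pump, went from 0, 0.503 and 1.32 CPM to 4.74, 6.02 and 7.91 (log2 fold change 3.42), and Nt5c1a, which makes adenosine from AMP in muscle, from 0, 0.418 and 1.56 to 5.27, 5.64 and 6.19 (log2 fold change 3.29). Casr, the calcium-sensing receptor, was at levels of at most 0.151 CPM at 12 months and of 0.690 to 1.99 at 20 months. Atp7a, Nt5c1a and Casr averaged under 1 CPM at 12 months and met the minimum level for being named only through the 20-month group, so their values are a description. In Hipk2 the lowest 20-month replicate was above the highest at 12 months.

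Some large values belonged to genes that share exons. Several Pcdhg genes, which encode clustered protocadherins, rose while Pcdhgc4 fell from 12.0, 13.4 and 19.8 CPM to 0, 0.135 and 0.590. They share up to 2121 exonic bases, and the summed level of 22 genes of the cluster went from 10.7, 28.6 and 47.1 CPM to 72.8, 83.7 and 94.4. How the reads of the shared exons were divided between the members cannot be read from the table, so their single values are uncertain. Pakap was at 0 in all 12-month replicates and at 3.88, 6.21 and 10.3 CPM at 20 months, and shares 81.5% of its exonic bases with Akap2. Cish, a suppressor of cytokine signalling, fell from 1.49, 5.25 and 74.7 CPM to 1.05, 2.00 and 4.51 (log2 fold change -3.24), with overlap between the ages.

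Since suppliers differed, genes known to differ between C57BL/6 substrains were read as well. C57BL/6J mice carry a deletion within Nnt, which encodes a mitochondrial transhydrogenase, and counts per gene do not show which exons were read. Nnt (ENSMUSG00000025453, chr13:119335448-119408997, minus strand) was at 24.5, 80.5 and 172 CPM at 12 months and 164, 187 and 213 at 20 months (log2 fold change 1.09, SE 0.28, adjusted p = 8.1e-04). In the fit of 6 against 3 it did not pass (0.47, adjusted p = 0.22), and it shares 47.4% of its exonic bases with a second entry of the same name. The sum of both was 51.1, 206 and 290 CPM at 12 months and 312, 331 and 354 at 20 months. Of the 8 genes of this list 2 rose and none fell, and of 9 tested without the 3 libraries 1 rose and 1 fell.

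Levels at the other ages place the 12 to 20 month step among F mice. Median Rps2 was 1320 CPM at 6 months, 1688 at 12, 496 at 20, 811 at 28 months in batch 1 and 540 at 28 months in batch 2. Atp5g1 had medians of 901, 1176, 406, 457 and 401 in the same sequence of groups. Hipk2 had medians of 13.2, 8.23, 121, 30 and 69.9, and Ptprb of 24.3, 20.5, 110, 40.7 and 89.1. In each of these genes the 20-month median lay outside the medians of 6, 12 and 28 months in batch 1. These are levels given side by side without a test, the 6-month mice share the supplier of the 12-month mice, and 6-month replicate 3 also carried Ddx3y against its label. The 28-month batch 1 replicate 8 held 13700 CPM of keratinocyte markers. Correlations of a library's deviation with transcript length also differed between groups. They were -0.51 to -0.17 at 6 months, -0.24 to 0.07 at 28 months in batch 1 and 0.14 to 0.44 in batch 2. The part of length in these levels was not tested.

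**Figure D4:**
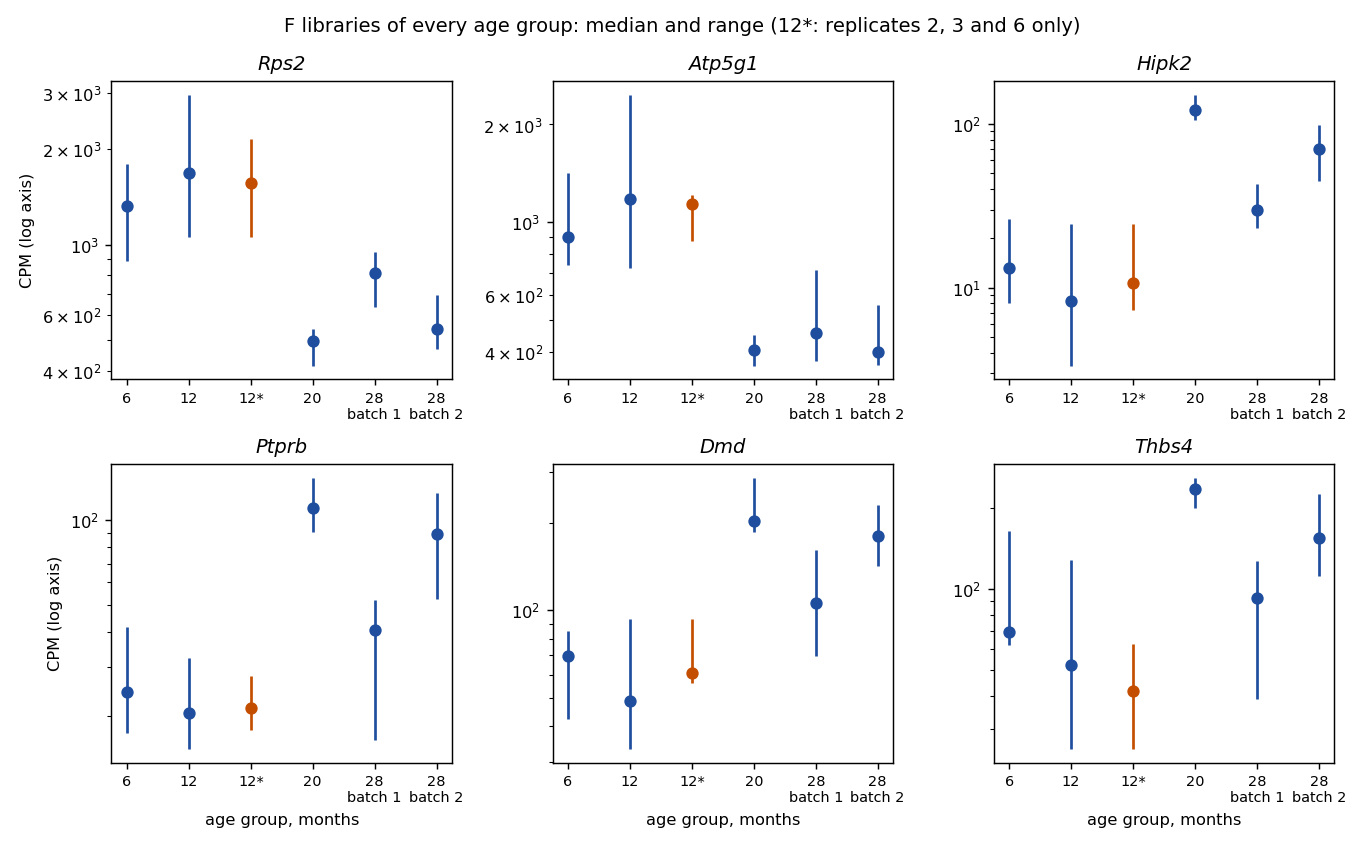
Median (point) and range (line) of CPM on a log axis (y) in F control mice of each age (x) for 6 genes; 12* stands for 12-month replicates 2, 3 and 6 alone, and 28-month mice are split by batch. The 20-month medians are the lowest of the groups for Rps2 (496 CPM) and the highest for Hipk2, Ptprb, Dmd and Thbs4.

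The same step in M mice, with the same pair of suppliers and no shared samples (12-month M replicate 3 carried Xist against its label), called 8778 genes (48.2%; 4509 up, 24.8%, and 4269 down, 23.4%). Of these, 3818 also rose and 3472 also fell in F, and 4 were called in opposite directions. The shared calls were 80.3% of those in F and 83.0% of those in M. The medians of most lists were alike, with -1.51 in F and -1.38 in M for cytosolic ribosomal proteins, -1.33 and -1.08 for complex I, 1.07 and 1.06 for endothelial markers and 1.26 and 1.27 for giant sarcomere genes. Rps2 fell by 1.67 in M, Hipk2 rose by 3.96 and Ptprb by 2.57.

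A test of the difference itself called 2 of 18218 genes (0.011%, 0.00549% in each direction), Ddx3y and Xist, both at an adjusted p of 0.038, and 1147 at an unadjusted p under 0.05. These are the transcripts by which 12-month libraries went against their labels. Without the 3 libraries none was called by edgeR and 1138 had an unadjusted p under 0.05, while DESeq2 called 26 and limma-voom 0 with all replicates. Lists whose medians lay apart in F and M were the Schwann cell list (-1.25 and 0.89), mitochondrial genome messengers (-1.25 and -0.36), adipocyte markers (0.10 and 0.89), erythroid markers (0.49 and -0.97), neutrophil and marrow markers (0.00 and -1.03) and keratinocyte markers (-7.35 and 2.81). The neutrophil list summed to at most 3.32 CPM in F and 11.3 in M, near the floor. Keratinocyte markers had a median of -2.56 in F without the 3 libraries, and summed to 9.1 to 83.9 CPM in M. No gene of any list named here passed the test of the difference.

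**Figure D5:**
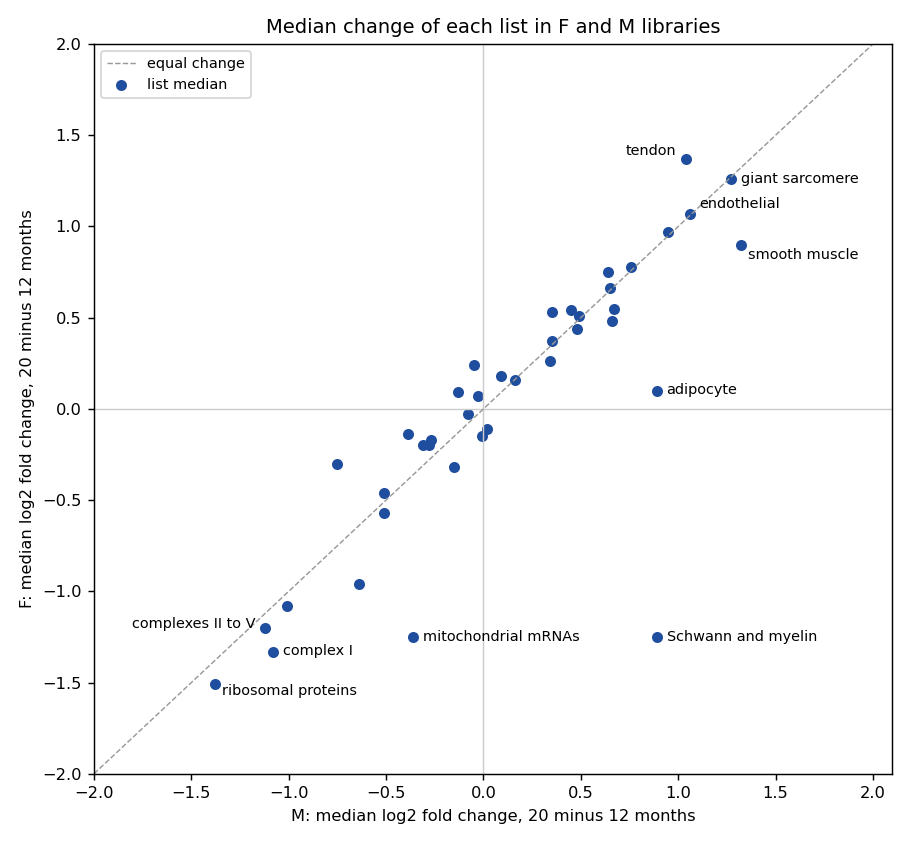
Median log2 fold change from 12 to 20 months of 40 gene lists in M (x axis) and in F (y axis), with a line of equal change; erythroid, neutrophil, lymphocyte and keratinocyte lists are not drawn. Ribosomal and complex I lists sit at the lower left (-1.51 in F and -1.38 in M, -1.33 and -1.08), and the Schwann cell list lies off the line at -1.25 in F and 0.89 in M.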

How the data were processed

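RNA sequencing counts of mouse soleus muscle were analysed in 78 libraries, 77 after the 2 that share an animal tag were summed. The deposited table holds expected counts per gene from RSEM 1.3.3, with STAR 2.7.11b, FastQC and mm10 also named, per the submitters' processing notes; the annotation release is not given in the sources used here, nor is the strand setting. Of its 133 columns 55 were not used. The authors' expected counts were rounded before testing (8.99% of values were not whole).

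Genes were tested with edgeR 4.0.16 (quasi-likelihood test, R 4.3.3) in 1 fit of 11 groups of age, label, feed and batch, with TMM factors and filterByExpr (minimum count 10, minimum total 15), Benjamini-Hochberg adjustment and a threshold of 0.05. Contrasts were 20 against 12 months in F, the same without 12-month replicates 1, 4 and 5, and the F change minus the M change. Single-gene CPM carry TMM factors, except where given as of the library total, as for Ddx3y and Xist in the check of labels. Sums over lists use library totals. Offsets for transcript length and GC content came from a spline with 5 degrees of freedom per library. DESeq2 1.42.0, limma 3.58.1, RLE factors, other filters, other sets of samples, a replicate block and leaving out each replicate were tried. Symbols matched 35298 and GENCODE M21 positions 35338 of 36904 gene IDs. Coordinates of genes span the whole gene body on mm10.

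The members, gene lists and doubted libraries were chosen with earlier results of these data known. Genes named were the 12 largest rises and falls called in both fits whose higher group averaged 1 CPM or more, the 5 largest in each direction lost without the 3 libraries, the 6 lowest p in each direction without them, up to 4 genes of lowest p per list with at least 30% of members called in one direction, and a few fixed genes. Chrna1, Cldn5, Col1a1, Col3a1, Des, Egfl7, Fbxo32, Hspa5, Kdr, Myh11, Ncam1, Ndufs1, Neb, Pax7, Ppargc1a, Pvalb, Sdha and Trim63 were chosen from the lists after their values were seen. A few genes are not reported here.

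Replicate numbers did not pair the samples (correlation of deviations -0.07 to 0.01). In simulated data 200 genes were changed, with no trend on length and no library rich in skin or mitochondrial transcripts. With all libraries the test recovered 27.9%, 50.8% and 73.1% of genes changed 1.5-, 2- and 4-fold, over 17936 genes, with 2.88% of its 104 calls false. Without the 3 libraries it recovered 14.7%, 43.1% and 68.7%, over 18066 genes, with 8.70% of its 92 calls false. Far more genes were called in the real data, so these shares do not carry over to it.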

Additional observations from a re-analysis of the deposited data

Results flagged for a closer look

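Within each group of 6, single replicates were compared with the others by the gap to the nearest value as a share of the group's range (Dixon's ratio). This singled out 54 of 356 group tests of named genes (15.2%). Chance gives about 1 in 20 only for normally distributed values of genes not chosen by those values. Some genes were named because their call was lost without the 3 libraries, and CPM were not log-transformed. The share is therefore a description and is not set against chance. The 12-month F replicate 4 accounted for 19 of them and replicate 5 for 13.

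In 12-month F replicate 4, genes of mitochondrial ATP production stood above the other 5 replicates. The values in CPM were 32380 for mt-Rnr1, 29520 for mt-Rnr2, 110500 for mt-Nd1, 49680 for mt-Co3 and 26590 for mt-Atp6. Nuclear genes of the chain followed on the TMM scale, with Ndufa7 at 282, Ndufb8 at 1290, Atp5g1 at 2471, Cox4i1 at 2609 and Uqcrq at 1654 CPM. The TMM factor raised every value of this replicate. On the library total mt-Rnr1 was at 13000 CPM, and Ddx3y was at 16.8 against 41.7 with the factor. The height of the nuclear genes named here in replicate 4 thus depends on the scaling. The pyruvate carrier genes Mpc1 and Mpc2 were at 1339 and 978 CPM in the same replicate. Lars2 was at 4968, the fast light chain gene Mylpf at 4100, Mrps24 at 241, Hspe1 at 240, Sod1 at 240 and the chemokine gene Cxcl14 at 156 CPM. Adamts1, at 15.1 CPM, was the one gene of this replicate that stood below the others.

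In 12-month F replicate 5, skin genes stood apart, with Krt5 at 568.3, Krt10 at 919, Krt14 at 374, Krt15 at 203, Krt77 at 384, Lgals7 at 106, Perp at 305 and Krtdap at 111.2 CPM. Fxyd3 (28.5), Pcdhgc4 (19.8), Utrn (36.3), Etfa (358) and Idh3b (492 CPM) did so in the same replicate.

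In 12-month F replicate 2 this concerned Hipk2 at 24.5, Bag3 at 320, Prkar1a at 196 and Clock at 37.0 CPM. Replicate 1 gave Myh4 at 404 and Hmbox1 at 12.8 CPM, and replicate 3 gave Zbtb9 at 0.687 CPM.

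At 20 months, F replicate 1 stood apart in Mal (6.73), Ncmap (3.86), Dhrs9 (6.94) and Gdf15 (1.04 CPM), the first 2 of which are myelin genes. Replicate 5 did so in Lars2 (610), Hspe1 (64.0), Scx (16.4), Zfp968 (9.35) and Gal3st1 (0.494 CPM). Replicate 6 did so in Mybph (44.3 CPM), in Hspg2 (200.4 CPM) and in Krt5 and Krt77 (0.0486 CPM each), replicate 3 in Cish (4.51 CPM) and replicate 4 in Myh4 (3068 CPM).

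The change from 12 to 20 months differed between F and M in 2 transcripts by the test of the difference (edgeR, adjusted p = 0.038 for both). Ddx3y had a difference of -13.49 and Xist of 11.16 on the log2 scale. Both are the transcripts by which the libraries labelled 12-month F replicates 1 and 4 went against their label, and neither passed without those libraries.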

How the results depend on the processing

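The count of 9073 genes changed with all replicates became 6013 with a replicate block in a fit of only the compared groups, and otherwise ran from 6746 (length and GC offsets) to 10991 (limma-voom with quality weights). It was 8928 with a replicate block in the fit of all groups, 8051 without 12-month replicates 1 and 4, 8965 without the skin library, and 8505 to 9222 with each replicate left out. Without the 3 libraries 7462 were called, 5040 to 9013 over the alternatives, 7488 with a replicate block and 5894 to 7269 with each replicate left out. The replicate numbers do not pair the samples, and no replicate correlated best with its own number. The count of 2 for the difference between F and M became 26 with DESeq2, 4 without the skin library, 6 without the 3 libraries and 12-month M replicate 3, 1 with the animal-tag libraries kept apart, and 0 with limma-voom, with only the compared groups, with only batch 1 groups, with a replicate block in either fit, without replicates 1 and 4, and without the 3 libraries. With each replicate left out it ran from 0 to 6. Of 171 named genes called, 21 lost the call with offsets, 23 without the 3 libraries and 8 with limma-voom, and 159 kept it with each replicate left out. Pgam2 and Ccl11 reversed with offsets, to 0.05 and 0.10 on the log2 scale; the cause was not tested beyond the offsets' own construction from length and GC content. Depth limits genes near 1 CPM most, and of 182 named genes 65 share exonic bases with another counted gene, where reads may have been divided.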
